A study of Sus scrofa with 2 samples.

Results

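The cells described here are 51 thymocytes of the pig (Sus scrofa) from a library of invariant natural killer T (iNKT) cells, chosen because they carried transcripts of a type 1 or cytotoxic T cell program. The rule summed the unique molecular identifiers (UMIs, 1 per captured transcript) of CCL5, CXCR3, TBX21 and EOMES in each cell and kept cells with a sum of at least 2, so the members were selected on measured values of these 4 genes. Cells with fewer than 500 genes, or with more than 10% of their UMIs from the 13 mitochondrial genes, had been removed first. The rule found 51 of 11273 filtered iNKT cells, which is 0.452% (exact binomial 95% interval 0.337 to 0.594), among 12097 barcodes of the library. The same rule found 134 of 8026 filtered cells, 1.67% (1.40 to 1.97), in a library of total thymocytes. They are called rule-positive cells below, and iNKT cells with none of the 4 transcripts are called sum-0 cells.

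Both libraries were made from the same 2 untreated, mixed-breed pigs aged 22 weeks, with the 10x Genomics 3′ kit, version 3.1. Cells of both animals were combined before each library, and nothing maps a cell to its animal. The iNKT library held thymocytes enriched with magnetic beads and then sorted as live cells, and the total thymocyte library held live-sorted cells without that enrichment. The groups compared were the 51 rule-positive cells against 510 sum-0 cells of the iNKT library, 10 per cell, matched on total UMIs, and rule-positive iNKT cells against rule-positive total thymocytes. With 1 library per cell kind there was no replicate and no test. Every interval covers counting error only, and PCR duplicates were already collapsed by UMI.

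iNKT cells are T cells whose semi-invariant receptor recognises lipids presented by CD1d, and their development depends on PLZF, the transcription factor encoded by ZBTB16. In mice they mature in the thymus into functional subsets, of which the type 1 subset relies on T-bet (TBX21), resembles natural killer (NK) cells in its receptors and makes interferon gamma. CCL5 is a chemokine of effector and memory T cells and NK cells, CXCR3 is a chemokine receptor under T-bet control, and Eomesodermin (EOMES) is a relative of T-bet found in cytotoxic lymphocytes.

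The rule-positive cells held 191583 UMIs, with a lowest total of 1318, a median of 3380 and a highest of 8805 per cell. The matched sum-0 cells held 1915962 UMIs, with a median of 3380.5. The median number of genes was 1133 in rule-positive cells and 1286.5 in matched sum-0 cells, and the median mitochondrial share was 5.26% and 4.94%. Scrublet's automatic threshold marked 1 of the 11273 iNKT cells and 0 of the 8026 total thymocytes, which means that the caller failed here and that doublets were not removed. Of the 51 cells, 2 were among the highest 8% of doublet scores and 5 among the highest 10% of total UMIs. The libraries shared 41 barcodes, 2 of them in rule-positive iNKT cells, and none was rule-positive in both libraries.

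The 4 transcripts that chose the cells were spread unevenly, and CCL5 supplied most of their UMIs. CCL5 had 451 UMIs in 29 of the 51 cells, with up to 54 in a cell. CXCR3 had 73 UMIs in 37 cells, with up to 5. TBX21 had 14 UMIs in 12 cells, and EOMES had 1 UMI in 1 cell. Only 2 cells had 3 of the 4 transcripts, 24 had 2 and 25 had 1. These values are the selection itself and are a description. At the edge of the rule, the 13 cells with a sum of 2 held 23 CXCR3 UMIs, 3 TBX21 UMIs and no CCL5 UMI. The 60 cells just outside it, with a sum of 1, held 28 CXCR3, 13 CCL5, 13 TBX21 and 6 EOMES UMIs. At the other end, 15 cells had a sum of 12 or more.

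A split by CCL5 divided the rule-positive cells into 2 sets that differed in several other genes. The CCL5 set had at least 2 CCL5 UMIs and held 28 cells (107130 UMIs, median 3304.5 per cell). The other 23 cells (84453 UMIs, median 3380) all had a CXCR3 UMI, and 1 of them had a single CCL5 UMI. The split uses measured values, so what follows within it is a description. Each set was also set against its own matched sum-0 cells, 280 for the CCL5 set and 230 for the other set.

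**Figure D1:**
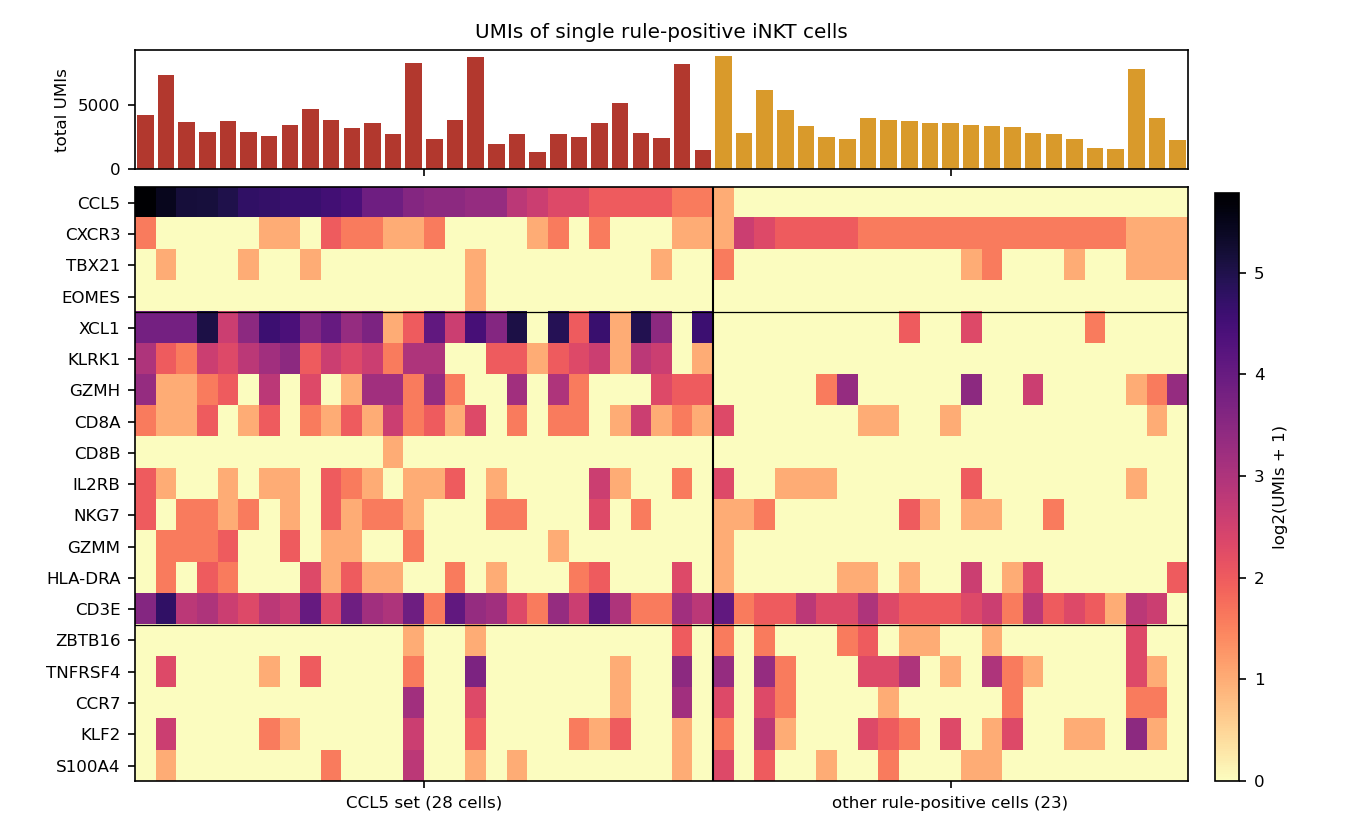
UMIs of the 51 rule-positive iNKT cells, 1 cell per column, as log2(UMIs + 1), with total UMIs per cell as bars above. The 28 cells of the CCL5 set are on the left, ordered by CCL5, and the other 23 on the right, ordered by CCL5 and CXCR3. XCL1, KLRK1 and CD8A fill most columns of the CCL5 set, and KLRK1 is at 0 in all 23 other cells.

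ZBTB16, the gene that defines the iNKT lineage, was found in few cells of the CCL5 set. A ZBTB16 UMI was present in 3 of the 28 cells (10.7%, 2.27 to 28.2), in 8 of the 23 other cells (34.8%, 16.4 to 57.3) and in 246 of the 510 matched sum-0 cells (48.2%, 43.8 to 52.7). Its summed level was 46.7 CPM (UMIs of the gene scaled to a common library total) in the CCL5 set against 197 in its matched cells, a ratio of 0.237 (0.0762 to 0.562). In the other set it was 189 CPM against 213 CPM, a ratio of 0.889 (0.497 to 1.48). After every cell was thinned to 2000 UMIs, ZBTB16 was in 0 of 25 cells of the CCL5 set, which allows a share of cells with a UMI of up to 13.7% at that depth, in 6 of 21 other cells (28.6%) and in 145 of 467 matched sum-0 cells (31.0%). The CCL5 set of total thymocytes had a ZBTB16 UMI in 2 of 82 cells (2.44%, 0.297 to 8.53; median 2608 UMIs per cell).

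The 3 cells of the CCL5 set with a ZBTB16 UMI were also its deepest. They held 8186, 8293 and 8751 UMIs, while the highest total among the 25 without ZBTB16 was 7363. All 3 also had UMIs of TNFRSF4, which encodes the costimulatory receptor OX40, and of CCR7, a receptor for lymphoid-tissue chemokines. TNFRSF4 reached 951 CPM in these 3 cells and 110 CPM in the 25 without ZBTB16, and CCR7 reached 793 CPM and 12.2 CPM. KLRK1 was in 1 of the 3 and in 24 of the 25. None of the 28 cells of the CCL5 set was among the highest 8% of Scrublet scores. Scrublet failed here, so its scores cannot tell doublets from single cells. Whether these 3 droplets held more than 1 cell was not tested. The 8 other cells with ZBTB16 held 2317 to 8805 UMIs.

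Of the coreceptor genes, CD8A separated the sets, and CD8B and CD4 were nearly absent from both. CD8A, which encodes the CD8 alpha chain, had a UMI in 23 of 28 cells of the CCL5 set (82.1%, 63.1 to 93.9), in 5 of 23 other cells (21.7%, 7.46 to 43.7) and in 29 of 510 matched sum-0 cells (5.69%, 3.84 to 8.06). CD8B, which encodes the beta chain of the conventional CD8 coreceptor, had 1 UMI in 1 cell of the CCL5 set, none in the other set and 1 in the matched sum-0 cells. CD4 likewise had 1 UMI in 1 cell of the CCL5 set and none in the other set. CD8A without CD8B was thus seen in 22 of 28 cells of the CCL5 set, in 5 of 23 other cells and in 29 of 510 matched sum-0 cells. CD3E, a chain of the CD3 complex of all T cells, was found in 28 of 28 cells of the CCL5 set, in 22 of 23 other cells and in 497 of 510 matched cells.

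**Figure D2:**
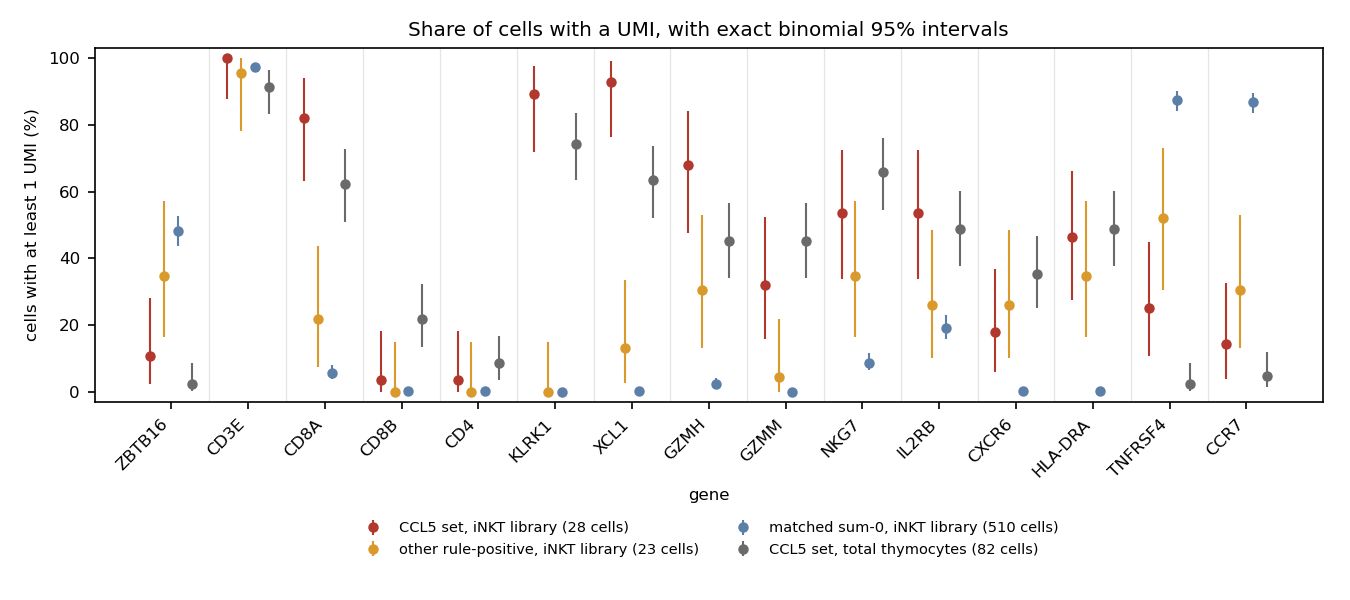
Share of cells with at least 1 UMI of each gene, in percent, with exact binomial 95% intervals, in the 28 cells of the CCL5 set, the 23 other rule-positive cells, the 510 matched sum-0 cells and the 82 cells of the CCL5 set of total thymocytes. KLRK1, XCL1 and CD8A are high in both CCL5 sets and at most 5.69% in matched sum-0 cells, and CD8B is at 3.57% in the iNKT CCL5 set and at 22.0% in that of total thymocytes.

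The label of the cells as type 1 or cytotoxic iNKT cells was met only in part by its markers. Most cells had 1 or 2 of the 4 marker transcripts, EOMES was nearly absent, and 40 of the 51 had no ZBTB16 UMI. Among the matched sum-0 cells 246 of 510 (48.2%) had a ZBTB16 UMI. A missing UMI does not show that a cell lacked the transcript, so ZBTB16 alone does not decide the label. Markers of other thymocyte and blood lineages were counted to see which carried-over cells the sets could hold. Of 11 double-positive thymocyte markers, RAG1, RAG2, PTCRA, DNTT, CD1E, ARPP21, EPCAM and BCL6 were at 0 in both sets, and the list summed to 18.7 CPM in the CCL5 set, 0 in the other set and 17.7 CPM in matched sum-0 cells. Of 5 NK cell markers, NCR1, TYROBP, GNLY and KLRB1 were at 0 in both sets, while FCER1G, the gamma chain of Fc receptors, had 17 UMIs in 8 cells of the CCL5 set and 1 UMI in the other set. The CD8 single-positive list summed to 1550 CPM in the CCL5 set, 604 CPM in the other set and 139 CPM in matched cells, and of the 166 UMIs in the CCL5 set GZMH gave 83 and CD8A 49. CD8B, its defining member, had 1 UMI in the CCL5 set and none in the other set.

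Most defining markers of the remaining lineages were at or near 0, with CD79A, IRF8 and CST3 as exceptions. The gamma delta list summed to 280 CPM in the CCL5 set, 675 CPM in the other set and 795 CPM in matched cells, with TRDC and SOX13 at 0 in each. RHEX, another member, had 25 UMIs in 11 of 23 other cells and 3 UMIs in 1 cell of the CCL5 set. The B and plasma cell list summed to 317 CPM in the CCL5 set, 225 CPM in the other set and 126 CPM in matched cells. Its members MS4A1, CD79B, PAX5, BANK1 and MZB1 were at 0 in both sets. CD79A had 43 UMIs in 25 of the 51 cells and 207 UMIs in 162 of the 510 matched cells, a ratio of 2.08 (1.46 to 2.90), or 2.63 (1.70 to 3.96) in the CCL5 set. IRF8, another member, had 9 UMIs in rule-positive and 15 UMIs in matched cells, a ratio of 6.0 (2.32 to 14.6). Of 10 myeloid and dendritic markers, CST3 had 8 UMIs in 7 cells of the CCL5 set and 2 UMIs in the 510 matched cells, and the other 9 were at 0 in both sets. All 5 erythroid and platelet and all 8 stromal and epithelial markers were at 0 in both sets. The regulatory list summed to 747 CPM in the CCL5 set, 1184 CPM in the other set and 2051 CPM in matched cells, mostly from TNFRSF4 and TNFRSF18, and FOXP3, the factor of regulatory T cells, was at 0 in all 51 cells. The CD4 single-positive list summed to 159 CPM in the CCL5 set, 414 CPM in the other set and 589 CPM in matched cells, mostly from CD40LG, with 1 CD4 UMI in the 51 cells. The part of carried-over cells in the differences below was not tested.

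Across all genes, 2678 had at least 100 UMIs over the rule-positive and matched sum-0 cells and were counted as measured. Of these, 45 (1.68%) were at least 2-fold higher in rule-positive cells and 288 (10.8%) at least 2-fold lower. The matched cells held 1915962 UMIs against 191583, so a gene low in rule-positive cells could pass the minimum on matched UMIs alone. Near the minimum few rule-positive UMIs were expected, and counting error reaches 2-fold lower more readily than 2-fold higher. The larger number of lower genes, here and in the lists below, is therefore not read as a result. With 5 or 20 matched cells per cell the counts were 23 and 124 or 95 and 619, since more cells bring more genes over the UMI minimum. In the CCL5 set against its matched cells, 2.34% of 1493 measured genes were at least 2-fold higher and 14.1% lower. In the other set against its matched cells, 1.04% of 1149 were higher and 10.4% lower. The median log2 ratio of the 2678 genes was -0.19, and list medians below are given relative to the median of their comparison. KLRK1, XCL1 and GZMH, with 0, 14 and 17 matched UMIs, reached the minimum only through their 110, 394 and 121 rule-positive UMIs. Their calls as higher in the lists below were thus fixed by the minimum. CCL4, TRNT1 and LAT2, with 67, 78 and 81 matched UMIs, could also pass only by being at least 2-fold higher, so their calls were fixed too. RDX and ADGRE5, with 90 and 93 matched UMIs, passed only with their rule-positive UMIs, though this alone did not fix their calls.

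Genes of cytotoxic granules were higher mainly through GZMH, CTSW and CST7. Of 17 listed granule genes with a symbol, 8 were measured in all rule-positive cells, 3 were at least 2-fold higher, none was lower, and the list median was 0.20 above all genes on the log2 scale, or 1.11 where cells of both groups had to have a ZBTB16 UMI. That setting, used again below, leaves 11 rule-positive cells. GZMH, a granule serine protease, had 83 UMIs in 19 of 28 cells of the CCL5 set (lowest 0, median 2, highest 9 per cell). In the other set it had 38 UMIs in 7 of 23 cells, and in matched sum-0 cells 17 UMIs in 12 of 510. Its CPM was 632 (524 to 755) in rule-positive and 8.87 (5.17 to 14.2) in matched cells, a ratio of 71.2 (42.7 to 126). GZMH was found in both sets, though in more cells of the CCL5 set.

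CTSW, the lysosomal protease cathepsin W of cytotoxic cells, was read in 27 of 28 cells of the CCL5 set, 22 of 23 other cells and 292 of 510 matched cells. Its ratio to matched cells was 5.76 (4.93 to 6.72) in the CCL5 set and 2.85 (2.27 to 3.55) in the other set. CST7, the granule protease inhibitor cystatin F, had ratios of 3.46 (2.69 to 4.43) and 2.38 (1.70 to 3.27) in the same order. Both genes were thus above the matched cells in each set, by more than counting error.

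NKG7 and GZMM were also above matched cells, and PRF1, GNLY, GZMK and FASLG were sparse. NKG7, a granule membrane protein, had a UMI in 15 of 28 cells of the CCL5 set, 8 of 23 other cells and 45 of 510 matched cells, and its ratio in all rule-positive cells was 8.75 (5.64 to 13.5). GZMM, another granzyme, had 18 UMIs in 10 rule-positive cells, 9 of them in the CCL5 set, and 0 UMIs in matched cells. With the matched cells set at a floor of 3 UMIs over the group, GZMM was 60.0-fold higher, which leaves out the counting error of its 18 UMIs. PRF1, the pore-forming protein perforin, had 9 UMIs in 9 rule-positive cells and 45 UMIs in 42 matched cells, a ratio of 2.0 whose interval (0.860 to 4.14) includes 1. GNLY (granulysin) was at 0 UMIs, GZMK had 2 UMIs in 1 cell, and FASLG, the ligand of the death receptor Fas, was in 3 cells. SRGN, the granule proteoglycan serglycin, was read in 45 of 51 cells at a ratio of 1.01 (0.883 to 1.14).

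KLRK1 was read in most cells of the CCL5 set and in none of the other set. It encodes NKG2D, an activating receptor for stress-induced ligands on NK cells and cytotoxic T cells. It had 110 UMIs in 25 of 28 cells of the CCL5 set (lowest 0, median 4, highest 10), none in the 23 other cells and none in the 510 matched cells. With the matched cells at the floor of 3 UMIs, KLRK1 was 367-fold higher in rule-positive cells, and the lower bound of its exact interval was 293. The other set's 0 of 23 cells allows a share of cells with a KLRK1 UMI of up to 14.8%, which does not limit the share that expressed the gene.

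Among the rule-positive and matched cells, CD96 and CD244 were also found in the CCL5 set alone, at lower counts than KLRK1. CD96, an adhesion receptor of T and NK cells, had 16 UMIs in 12 cells of the CCL5 set, and CD244, a receptor of the SLAM family, had 11 UMIs in 10. Both were at 0 in the other set and in the matched cells. SLAMF7, another SLAM family receptor, was found in 5 cells of each set and in 1 matched cell. KLRD1, KLRB1, NCR1 and TIGIT had no UMI in the 51 cells. SH2D1A, the adaptor of SLAM receptors, was lower in the CCL5 set, at a ratio of 0.397 (0.144 to 0.885), and was 1.19 (0.647 to 2.04) in the other set. Of 16 listed NK receptor genes with a symbol, 5 were measured in all rule-positive cells, 1 (KLRK1) was at least 2-fold higher and none lower. KLRK1 was measured through rule-positive UMIs alone, so its call says nothing about the list. In the CCL5 set 3 were measured, KLRK1 higher and SH2D1A lower. JAML, which encodes an adhesion and costimulatory molecule, was in 17 of 28 cells of the CCL5 set, none of the other set and 27 of 510 matched cells.

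XCL1, which encodes a chemokine made by CD8 T cells and NK cells, was found in nearly every cell of the CCL5 set. It had 385 UMIs in 26 of 28 cells (lowest 0, median 12.5, highest 32), 9 UMIs in 3 of 23 other cells and 14 UMIs in 2 of 510 matched cells. Its CPM was 2056 (1858 to 2270) in all rule-positive cells and 7.31 (3.99 to 12.3) in matched cells, a ratio of 281 (166 to 520). XCL1 and KLRK1 were found together in 24 cells of the CCL5 set, in none of the other set and in 1 of the 11162 sum-0 cells of the whole library. At least 3 of XCL1, KLRK1, GZMH and CD8A were found in 22 of 28 cells of the CCL5 set, in 0 of 23 other cells and in 2 of those 11162 sum-0 cells.

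A few genes of the type 1 program were higher. Of 24 listed type 1 genes with a symbol, 8 were measured in all rule-positive cells, XCL1, CCL4 and IL2RB were at least 2-fold higher, none was lower, and the median was 0.35 above all genes. The calls of XCL1 and CCL4 were fixed by the UMI minimum. IFNG, the interferon gamma gene, and IL18R1, a chain of the interleukin 18 receptor, had 0 UMIs in the 51 cells, a floor of 15.7 CPM, and in the 510 matched cells. IFNG was at 0 in all 11273 filtered iNKT cells, so its absence did not set the rule-positive cells apart. CCL4, an inflammatory chemokine, had 32 UMIs in 5 cells of the CCL5 set and 4 UMIs in 2 other cells, with ratios of 13.3 (7.61 to 23.7) and 0.930 (0.243 to 2.56) to matched cells. A single cell, 1 of the 3 with ZBTB16, held 19 of the CCL4 UMIs, and CCL4 was at 134 CPM in the 25 cells without ZBTB16, against 299 CPM in all 28. IL2RB, the beta chain shared by the interleukin 2 and 15 receptors, was in 15 of 28 cells of the CCL5 set, 6 of 23 other cells and 98 of 510 matched cells. Its ratio was 2.99 (2.03 to 4.33) in all rule-positive cells.

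Of the partner transcription factors, STAT4 and RUNX3 were above matched cells and ID2 was not. STAT4, which relays interleukin 12 signals, had 9 UMIs in 9 rule-positive cells, 4 in the CCL5 set and 5 in the other set, and 7 UMIs in 510 matched cells, a ratio of 12.9 (4.26 to 40.6). RUNX3, a factor of CD8 and cytotoxic T cells, had 27 UMIs in 21 cells against 54 UMIs in 45 matched cells, a ratio of 5.0 (3.03 to 8.08). ID2, an inhibitor of E proteins, did not differ beyond counting error, at a ratio of 0.917 (0.787 to 1.06). IKZF2, which encodes Helios, was in 28 of 51 cells at a ratio of 3.01 (2.07 to 4.30).

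**Figure D3:**
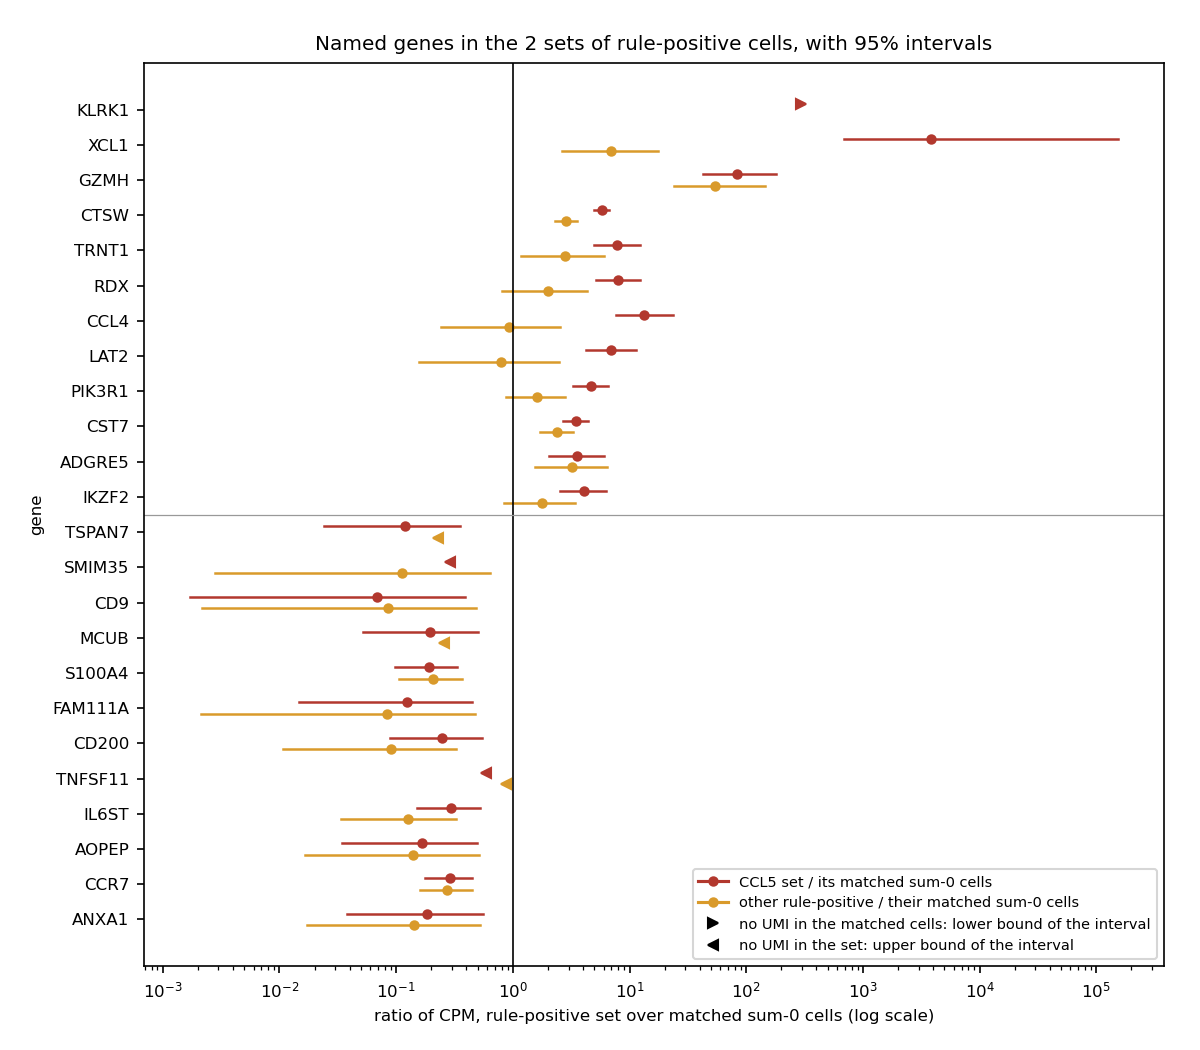
Ratio of CPM in each set over its own matched sum-0 cells, on a log scale, with exact 95% intervals, for the 12 genes highest and the 12 lowest among all rule-positive cells by the interval bound nearest to 1. Triangles mark genes with no UMI on one side, drawn at the finite bound of the interval, and KLRK1 has no UMI on either side for the other set. Most lower genes are low in both sets, while CCL4 and LAT2 are above 1 in the CCL5 set, at 13.3 and 6.98, and lie at 0.930 and 0.790 in the other set, with intervals that include 1.

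Further genes among the 12 highest were not part of a known cytotoxic list. TRNT1, a transfer RNA enzyme, and RDX, the membrane linker radixin, had ratios of 5.77 (3.91 to 8.43) and 5.33 (3.68 to 7.65) in all rule-positive cells. TRNT1 was read in 14 of the 51 cells and RDX in 28. PIK3R1, the regulatory subunit of phosphoinositide 3-kinase, had a ratio of 3.28 (2.45 to 4.35). LAT2, a membrane adaptor of receptor signalling, had 4.07 (2.63 to 6.18), and ADGRE5, the adhesion receptor CD97, had 3.44 (2.23 to 5.19). Where cells of both groups had to have a ZBTB16 UMI, LAT2 and ADGRE5 had log2 ratios of -2.11 and -0.021. That setting leaves 11 rule-positive cells, so these 2 values rest on few UMIs and are not read as a reversal. In the CCL5 set CD247, the zeta chain of the CD3 complex, was read in all 28 cells (lowest 1, median 6.5, highest 15), a ratio of 2.66 (2.24 to 3.14), and in the other set in 15 of 23 cells, a ratio of 0.463 (0.305 to 0.676).

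MHC class II genes were read in both sets, and also in cells just outside the rule. HLA-DRA, the alpha chain of the DR molecule, had 29 UMIs in 13 of 28 cells of the CCL5 set, 17 UMIs in 8 of 23 other cells, and 13 UMIs in matched cells, all 13 in 1 of the 510. SLA-DQB1, a DQ beta chain of the pig, was in 18 of 51 cells and 4 of 510 matched cells. In the 60 cells with a sum of 1, HLA-DRA was in 14 and SLA-DQB1 in 10. CD74, the invariant chain, was already in every matched cell and had a ratio of 1.35 (1.27 to 1.44). Of listed B cell and myeloid markers, CD79A, IRF8 and CST3 were above matched cells, at 43, 9 and 8 UMIs in the 51 cells, while MS4A1, CD79B and CD14 were at 0. CD79A was in 10 of 21 rule-positive cells with an HLA-DRA UMI (145 CPM) and in 15 of 30 without one (285 CPM). CST3 was in 4 and 3 cells in the same order. CD79A was also in 38.9% of all sum-0 cells, so it does not mark these lineages here. The part of other cell types in the class II levels was not tested.

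Several listed type 2 genes were lower in rule-positive cells. The listed GATA3 and ZBTB16 were not 2-fold lower in all 51 cells, and the share of cells with IL4 was not lower beyond counting error. Of 18 listed type 2 genes with a symbol, 10 were measured, none was at least 2-fold higher, and 6 were at least 2-fold lower, CCR4, CCR7, IL4R, ZBTB7B, LEF1 and ICOS. The median was 0.99 below all genes, and -0.20 from them where cells of both groups had to have a ZBTB16 UMI. CCR7 had 38 UMIs in 11 of 51 cells and 1345 UMIs in 443 of 510 matched cells, a ratio of 0.283 (0.199 to 0.390). CCR4, a chemokine receptor, had a ratio of 0.261 (0.0948 to 0.577), and LEF1, a factor of naive T cells, of 0.342 (0.220 to 0.508). IL4, the main type 2 cytokine, had a UMI in 1 of 28 cells of the CCL5 set, 3 of 23 other cells and 46 of 510 matched cells. Its share in all 51 cells, 7.84% (2.18 to 18.9), did not differ from the 9.02% of matched cells beyond counting error.

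GATA3, the type 2 master regulator, differed between the sets. It was 46.7 CPM in the CCL5 set against 180 CPM in its matched cells, a ratio of 0.259 (0.0832 to 0.615). In the other set it was 225 CPM against 173 CPM, a ratio of 1.30 (0.762 to 2.11).

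TNFRSF4 and CD5 were lower than in matched cells in both sets. TNFRSF4 was in 7 of 28 cells of the CCL5 set, 12 of 23 other cells and 446 of 510 matched cells. Its ratio to matched cells was 0.213 (0.146 to 0.301) in the CCL5 set and 0.460 (0.340 to 0.609) in the other set. CD5, a negative regulator whose level follows receptor signal strength in thymocytes, had ratios of 0.273 (0.170 to 0.416) and 0.375 (0.236 to 0.568) in the same order. In all rule-positive cells, of 14 measured genes of receptor signalling and costimulation, none was at least 2-fold higher and 6 were lower, TNFRSF4, CD5, PDCD1, TNFRSF18, CD28 and ICOS, with a median 0.40 below all genes, or 0.22 above them among cells with at most 5% mitochondrial UMIs. In the CCL5 set 6 of 13 measured were lower and CD247 was higher. In the other set 4 of 12 were lower, CD5, TNFRSF4, CD247 and PDCD1.

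Several cytokine receptor genes were lower, fewer of them in the other set. In the CCL5 set 3 of 5 measured were at least 2-fold lower, and in the other set 1 of 4, IL6ST. Of 9 measured in all rule-positive cells, IL2RB was at least 2-fold higher and IL21R, IL6ST, IFNGR2, IL4R, IFNAR1 and IL6R were lower, and the median was 1.31 below all genes. Against all sum-0 cells, unmatched, that median was 0.13 above all genes, with more genes measured. IL6ST, the shared signal chain gp130, had 16 UMIs in 11 cells against 725 UMIs in 336 matched cells, a ratio of 0.221 (0.125 to 0.361). IL7R, the receptor of the survival cytokine interleukin 7, went in different directions. It had a ratio of 0.515 (0.377 to 0.689) in the CCL5 set and of 1.58 (1.30 to 1.92) in the other set.

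Several genes of innate effector and memory T cells were lower as well. Of 14 measured, ITGB1 was at least 2-fold higher and 7 were lower, and the median was 0.78 below all genes. S100A4, a calcium-binding protein, had a UMI in 12 of 51 cells and 235 of 510 matched cells, a ratio of 0.198 (0.126 to 0.296). ANXA1 (annexin A1) had a ratio of 0.166 (0.0534 to 0.391), and CD9, a tetraspanin, had 2 UMIs against 263 UMIs, a ratio of 0.0761 (0.00916 to 0.277). TNFSF11, the cytokine RANKL, had 0 UMIs in the 51 cells against 109 UMIs in 72 matched cells, an upper bound of the ratio of 0.344. TSPAN7, SMIM35, MCUB, FAM111A, CD200 and AOPEP completed the 12 lowest, with ratios of 0.0457 to 0.171.

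Trafficking genes moved in both directions. Of 15 measured, XCL1, CCL4, CXCR4 and ITGB1 were at least 2-fold higher, and CCR4, CCR7, CD69 and KLF2 were among those at least 2-fold lower. Here too the calls of XCL1 and CCL4 were fixed by the UMI minimum. CXCR4, a receptor for CXCL12, had a ratio of 2.49 (1.79 to 3.41). KLF2, a transcription factor of thymic exit, was in 22 of 51 cells and 394 of 510 matched cells, a ratio of 0.484 (0.370 to 0.624). S1PR1, the exit receptor that KLF2 drives, had a ratio of 0.400 (0.0807 to 1.21) in the CCL5 set and 2.60 (1.30 to 4.86) in the other set. CXCR6, a receptor of tissue-resident and type 1 lymphocytes, was in 5 cells of the CCL5 set, 6 of the other set and 1 of 510 matched cells.

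In the 23 other rule-positive cells ZBTB16 and GATA3 did not differ from matched cells beyond counting error, and a few genes were higher that were not higher in the CCL5 set. RHEX, a regulator first described in erythroid cells, had a ratio of 10.4 (5.71 to 19.1) to matched cells, against 0.833 (0.164 to 2.64) in the CCL5 set. DUSP2, a phosphatase of kinase signalling, had a ratio of 2.60 (1.97 to 3.41), against 0.625 (0.387 to 0.961) in the CCL5 set. GBP1, an interferon-induced GTPase, had ratios of 3.29 (2.07 to 5.10) and 0.777 (0.327 to 1.59) in the same order. IL2RA, the alpha chain of the interleukin 2 receptor, had 6 UMIs in 4 cells against 2 UMIs in 230 matched cells, and 0 UMIs in the CCL5 set. Of 197 genes with at least 100 UMIs over both sets, 4.06% were at least 2-fold higher in the CCL5 set than in the other set and 3.05% lower. KLRK1, XCL1 and CD247 headed the first and IL7R, IFI6 and CD81 the second. KLRK1, XCL1 and CD247, with 0, 9 and 28 UMIs in the other set, could pass the minimum only by being higher in the CCL5 set. IL7R, IFI6 and CD81, with 48, 41 and 54 UMIs in the CCL5 set, passed only with their 121, 100 and 113 UMIs in the other set. These shares and genes are thus a description. CD81, a tetraspanin, had a ratio of 0.377 (0.267 to 0.525).

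Clusters made without the 4 rule genes placed the sets apart. Of 11 clusters, number 10 held 34 cells, 24 of them from the CCL5 set and none from the other set. Its leading genes were KLRK1, XCL1, GZMH, PLVAP, HLA-DRA, CST3 and CD8A. Cluster 7 held 121 cells, 22 of them from the other set and 3 from the CCL5 set, beside 27 cells with a sum of 1 and 69 with a sum of 0. It was mixed: JCHAIN and MZB1, genes of antibody-secreting cells, were among its leading genes, but its 25 rule-positive cells had 1 JCHAIN UMI and no MS4A1 UMI. The 96 cells of cluster 7 that did not meet the rule held 984 JCHAIN UMIs, in 4 of them. The other 2 rule-positive cells were in clusters 4 and 6. Neither cluster is given a cell type name.

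In the 10 cells of cluster 10 that did not meet the rule, CD8A was in 8, XCL1 in 5, GZMH in 4 and KLRK1 in 1, while CCR7 was in 7 and ZBTB16 in 1. In the 96 such cells of cluster 7, ZBTB16 was in 36 (37.5%), NKG7 in 41 (42.7%), RHEX in 48 (50.0%) and CXCR3 in 18 (18.8%). HLA-DRA was in 34 (35.4%) and SLA-DQB1 in 28 (29.2%) of the 96 cells, and KLRK1 in 0. Clusters used these genes, so the counts are a description.

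All rule-positive cells were set beside those of total thymocytes by the genes that mark lineage. A ZBTB16 UMI was found in 11 rule-positive iNKT cells of 51 (21.6%, 11.3 to 35.3), and among 134 rule-positive total thymocytes (median 2875.5 UMIs per cell) only 2 had one (1.49%, 0.181 to 5.29). CD8B was in 1 of 51 (1.96%) and 51 of 134 (38.1%), GZMK in 1 of 51 (1.96%) and 50 of 134 (37.3%), and KLRK1 in 25 of 51 (49.0%) and 65 of 134 (48.5%). Of 867 genes with at least 100 UMIs over both groups, 2.19% were at least 2-fold higher in rule-positive iNKT cells than in rule-positive total thymocytes and 10.5% lower.

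Cells with the same rule and at least 2 CCL5 UMIs were then compared between the iNKT library and the total thymocyte library, to set the CCL5 set beside like cells of the unselected thymus. There were 28 such cells in the iNKT library, 0.248% (0.165 to 0.359) of filtered cells, and 82 in total thymocytes, 1.02% (0.813 to 1.27). The summed levels of KLRK1, CD8A and GZMH did not differ between libraries beyond counting error. The share of cells with a UMI of each was larger in the iNKT cells, which were also deeper. KLRK1 had a ratio of iNKT over total of 0.961 (0.762 to 1.21), CD8A of 0.940 (0.659 to 1.32) and GZMH of 0.820 (0.630 to 1.06), intervals that include 1. KLRK1 was in 89.3% (71.8 to 97.7) of the iNKT CCL5 set and 74.4% of that of total thymocytes. CD8A was in 82.1% (63.1 to 93.9) and 62.2%, and GZMH in 67.9% (47.6 to 84.1) and 45.1%. Median totals were 3304.5 and 2608 UMIs per cell, so these shares were taken at unequal depth and are not read as a difference. XCL1 had a ratio of 1.16 (1.02 to 1.31). It was in 26 of 28 iNKT cells with a median of 12.5 UMIs, and in 52 of 82 total thymocytes with a median of 1. A single total thymocyte held 356 of the 751 XCL1 UMIs, and without that cell the ratio was 2.16 (1.88 to 2.50). ZBTB16 was in 3 of 28 cells and 2 of 82 cells, a ratio of 5.66 whose interval (0.926 to 59.4) includes 1.

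The sets differed in CD8B and in several killing genes. Of 354 genes with at least 100 UMIs over both CCL5 sets, 1.98% were at least 2-fold higher in the iNKT library and 5.37% lower. CD8B had 1 UMI in 1 of 28 iNKT cells and 42 UMIs in 18 of 82 total thymocytes, a ratio of 0.0539 (0.00133 to 0.317). GZMK, a granzyme of memory CD8 T cells, had 2 UMIs in 1 cell against 200 UMIs in 45 cells, a ratio of 0.0226 (0.00272 to 0.0828). GNLY had 0 UMIs against 164 UMIs, which came from 5 of the 82 total thymocytes. NKG7, PRF1, GZMM and CCL4 had ratios of 0.496, 0.330, 0.50 and 0.345, each with an interval below 1. EOMES, a rule gene, was in 1 of 28 and 19 of 82 cells. CXCR6 was lower too, at 0.238 (0.0839 to 0.551). Markers of other cells moved with these genes: the double-positive list summed to 18.7 CPM in the iNKT CCL5 set and 412 CPM in that of total thymocytes, and the NK list to 159 CPM and 1122 CPM, with NCR1, TYROBP, GNLY and KLRB1 at 0 in the iNKT set and at 14 to 164 UMIs in the total set. Their part in the differences was not tested.

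Higher in the iNKT library were FOS, RHOB, ID2, CD247 and the heat shock genes HSP70.2 and HSPA6. FOS, an immediate early factor induced by stimulation or stress, had 887 CPM (717 to 1084) in the iNKT CCL5 set and 181 CPM (132 to 244) in that of total thymocytes, a ratio of 4.89 (3.38 to 7.15). HSPA6 had a ratio of 2.29 (1.90 to 2.77) and CD247 of 2.0 (1.63 to 2.45). The bead selection was described for iNKT cells alone, so its part in these differences and that of cell kind cannot be told apart. FOS in the CCL5 set was 1.54 (1.23 to 1.92) times its matched iNKT cells. That comparison lies within 1 library and leaves the difference between libraries untested. TNFRSF4 and CCR7 had ratios of 9.33 (4.23 to 23.4) and 5.28 (2.32 to 13.1) to total thymocytes. The 3 cells with ZBTB16 held TNFRSF4 and CCR7 at 951 and 793 CPM in the iNKT CCL5 set, against 110 and 12.2 CPM in its 25 cells without ZBTB16 and 33 and 37.1 CPM in the CCL5 set of total thymocytes.

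**Figure D4:**
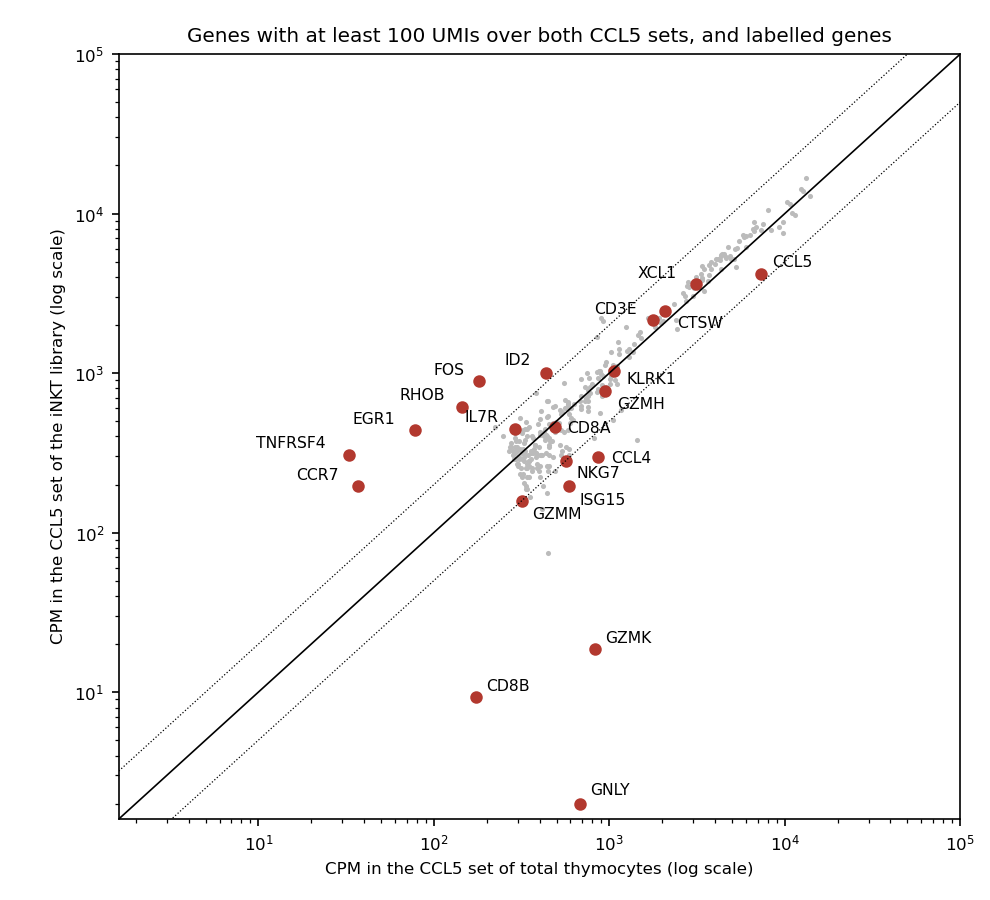
Level of each gene in CPM in the CCL5 set of the iNKT library (28 cells, vertical axis) against the CCL5 set of total thymocytes (82 cells, horizontal axis), both on log scales, for the 303 genes with a symbol and at least 100 UMIs over both sets (grey) and labelled genes (red). The solid line is equality, the dotted lines are 2-fold either way, and levels under 2 CPM are drawn at 2. KLRK1, GZMH, CD8A and XCL1 lie near the line, CD8B, GZMK and GNLY far below it, and FOS, TNFRSF4 and CCR7 above it.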

How the data were processed

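Single-cell RNA was measured in 1 iNKT and 1 total thymocyte library. The deposited files hold raw UMI counts per gene and cell, and their file headers name Cell Ranger 3.1.0. The submitters' processing notes name Cell Ranger 3.1 and Seurat 3.1, and the genome build is not given in the sources used here. Of 21301 genes, 14846 had a deposited symbol and 687 took one from a gene name table, which left 5768 without; 15513 symbols could be used. The libraries held 54457966 UMIs in 12097 barcodes (median 4074) and 29723207 in 9112 barcodes (median 2148), of which 11273 (93.2%) and 8026 (88.1%) passed the filter.

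Members and gene lists were chosen with earlier results of these data known. Each rule-positive cell was matched without reuse to the 10 sum-0 cells nearest in log total UMIs. UMIs were summed per group and given as CPM. Intervals are exact at 95%: Poisson for a CPM, conditional binomial for a ratio and Clopper-Pearson for a share. They and the floor of 3 counts cover counting error only, and cells of 1 library are not replicates, so no p-value is given. A gene was measured at 100 UMIs over both groups, and medians used log2 ratios with 0.5 UMI added. Named genes were the 12 highest and 12 lowest measured symbols by the interval bound nearest to 1, leaving out rule, mitochondrial, ribosomal and antigen receptor genes, plus listed genes past 2-fold and lineage markers at 0. Other genes were named after their values were seen, and a few listed genes are not reported here. Thinning kept 2000 UMIs per cell and left out shallower cells.

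Clustering used 2000 variable genes, 30 components, 15 neighbours and Leiden resolution 1, with the 4 rule genes, 65 ribosomal and 13 receptor genes set aside. Scrublet ran with an expected rate of 0.08. The ratio script was tested on simulated data. Tools were Python 3.11.15, numpy 2.4.6, scipy 1.17.1, pandas 2.3.3, scanpy 1.11.5, igraph 0.11.9, scikit-learn 1.9.0 and matplotlib 3.10.9, and edgeR 4.0.16 for TMM factors alone. Alternatives changed the matching, the rule, the filters, the UMI minimum, the added UMI and the scaling.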

Additional observations from a re-analysis of the deposited data

How the results depend on the processing

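No paired analysis was possible because each cell kind had 1 library, and no replicate could be left out. Of the main counts, shares and list medians recomputed, 170 moved by less than their limit, and those that moved by more are given here, among them 2 list medians that changed sign. Of 626 values of 35 named genes, 554 moved by less than their limit, 69 by more and 3 turned. Genes at least 2-fold higher and lower than matched cells numbered 45 and 288, against 23 and 124 with 5 matched cells, 95 and 619 with 20, 706 and 2559 with all sum-0 cells, 19 and 142 at no more than 5% mitochondrial UMIs, 357 and 1328 at a minimum of 20 UMIs, 11 and 56 at 300 UMIs, and 6 and 53 where both sides had a ZBTB16 UMI. More cells on a side bring more genes over the UMI minimum, by construction. A sum of at least 1 gave 69 genes higher, and 2 different detected genes gave 180 lower. The number of rule-positive cells was 111 with a sum of at least 1, 26 with 2 different genes detected, 20 at 5% mitochondrial UMIs and 32 after thinning, against 51. The median of the granule list over all genes, 0.20 on the log2 scale, was 1.02 with 5 matched cells, 0.85 with 20, 1.22 with all sum-0 cells, 1.11 with ZBTB16 on both sides, 0.86 at 5% mitochondrial UMIs, and 0.96 and 0.98 at 20 and 300 UMIs. The type 1 median of 0.35 was 1.83 with all sum-0 cells and 1.16 at 20 UMIs. The type 2 median of -0.99 was -0.40 with a sum of at least 1 and -0.20 with ZBTB16 on both sides. The cytokine receptor median of -1.31 was -0.19 with 5 matched cells, 0.13 with all sum-0 cells, which turned its direction, -0.37 with a sum of at least 1, -0.25 with ZBTB16 on both sides, and -0.63 and -0.71 at 20 and 300 UMIs. The interferon median of -0.82 was -0.15 with ZBTB16 on both sides, and the costimulation median of -0.40 was 0.22 at 5% mitochondrial UMIs, which also turned its direction. With ZBTB16 on both sides, where 11 rule-positive cells remain, LAT2 and ADGRE5 had log2 ratios of -2.11 and -0.021, and PRF1 had -0.30 at 5% mitochondrial UMIs. KLRK1 was in 49.0% of rule-positive cells, 65.8% at a sum of at least 3 and 65.6% after thinning. ZBTB16 was in 21.6%, and in 9.38% after thinning, where the rule was applied anew. CD8B was in 1.96%, and in 0% at 5% mitochondrial UMIs. In rule-positive total thymocytes CD8B was in 38.1%, against 25.3% at a sum of at least 3, 27.3% at 5% mitochondrial UMIs and 27.1% after thinning. GZMK there was in 37.3%, against 47.4% at a sum of at least 3 and 24.3% after thinning, and ZBTB16 in 1.49%, against 0% at 5% mitochondrial UMIs. Apart from the constructions named, the cause was not tested. TMM factors (0.968 for rule-positive and 1.03 for matched cells) moved every log2 ratio by 0.0927. Leaving out cells whose barcode both libraries held, or the highest 10% of total UMIs, or the total thymocyte with the most XCL1 UMIs, was chosen after seeing the data.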

Other observations

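Rule-positive cells showed little sign of division. Of 21 listed genes of the G2/M phase with a symbol, none reached 100 UMIs over rule-positive and matched cells, and the list summed to 41.8 CPM in the 51 rule-positive cells and 81.9 CPM in the 510 matched sum-0 cells. CDK1, TOP2A, CCNB1, CCNB2 and PLK1 were at 0 UMIs in the 51 cells. The S-phase list summed to 224 CPM in rule-positive cells and 384 CPM in matched cells, and neither of its 2 measured genes was 2-fold away from matched cells.

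Several interferon-stimulated genes were lower in rule-positive cells. Of 15 measured, none was at least 2-fold higher and 8 were lower (IFIT1, IRF7, OAS2, RSAD2, BST2, IFI44L, ISG15 and MX1), with a median 0.82 below all genes on the log2 scale, or 0.15 below where cells of both groups had to have a ZBTB16 UMI. IFI6, an interferon-induced mitochondrial protein, had a ratio to matched cells of 0.337 (0.241 to 0.461) in the CCL5 set and of 0.917 (0.739 to 1.13) in the other set, where GBP1 was 3.29 (2.07 to 5.10). ISG15, an interferon-induced ubiquitin-like protein, was at 245 CPM in rule-positive cells and 539 CPM in matched cells, a ratio of 0.455 (0.333 to 0.610). Of 9 measured immediate early genes, none was 2-fold higher and NFKBIA alone was at least 2-fold lower. Neither of 2 measured survival genes, and none of 9 measured glycolysis genes was 2-fold away from matched cells.

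Of 15 listed type 17 genes with a symbol, none was measured. IL23R, CCR6, IL17A, IL17F and IL22 were at 0 UMIs in the 51 rule-positive cells, and the list summed to 172 CPM in them and 110 CPM in matched sum-0 cells. RORA, a nuclear receptor, had 9 UMIs in 7 of the 23 rule-positive cells outside the CCL5 set, a ratio of 3.21 (1.33 to 7.01) to their matched cells.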
